A study of Homo sapiens with 8 samples.

Results

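The response to Z325 was compared gene by gene in HCT116 and NCI-H716 cells, both lines of colorectal origin. The genes compared were those of chromosomes 1 to 8 with at least 10 counts in each of 8 libraries, joined on the Ensembl identifier. There were 4152 such genes among 27950 listed on these chromosomes in the tables of both lines, and 3859 of them (92.9%) were protein-coding. The chromosome limit came from the HCT116 table used here, which ends on chromosome 9.

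Z325 is the compound ZINC000101867325, which the study selected by docking as a candidate inhibitor of the fibroblast growth factor receptors, FGFR1 to FGFR4. The 4 groups were HCT116 Control, HCT116 Z325, NCI-H716 Control and NCI-H716 Z325, with 2 libraries in each. The sample titles write Test for the treated libraries, and the series text and the paper name Z325 as the treatment. Each library was made from a small pool of cells by full-length cDNA amplification. The labels give no dose or time for the RNA-seq, the paper names a concentration for its later experiments without tying it to these libraries, and the control treatment is not described. HCT116 is an epithelial colon carcinoma line, and NCI-H716 is a colorectal carcinoma line with endocrine features. Each is an established line, so the comparison is between these 2 lines and not between tumour types.

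Cells that face oxidants or lose glutathione stabilise the transcription factor NRF2, which raises genes for cystine uptake, glutathione synthesis and NADPH supply. A shortage of amino acids, or unfolded protein in the endoplasmic reticulum, raises translation of ATF4, which drives amino acid synthesis and transport. The 2 programmes share targets, among them the cystine transporter *SLC7A11*. Growth factor receptors such as the FGFRs act through ERK and AKT, whose loss lowers genes of the cell cycle and of ribosome production.

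HCT116 Z325 replicate 2 was shallow, with 3434620 counts against 13183792 to 13396225 in the other 3 HCT116 libraries. The 4 NCI-H716 libraries held 10210239 to 19738840 counts over their full tables. In 2510 of the 4152 genes the lowest count was in that shallow library, so the minimum of 10 counts was set mostly by it. Replicates differed by more than counting noise in every group, with a chi-square per degree of freedom of 15.4 to 32.7, so no library was a copy of another. Of 9 epithelial markers in the tables, 2 to 5 per group were at 10 or more CPM, the count scaled to a fixed library size. *EPCAM* and *CLDN4* were so in every group, and *CDX1* was at 0 in all groups but HCT116 Z325. The summed level of 7 enteroendocrine markers was 4328.9 to 6294.5 CPM in NCI-H716 and 92.4 to 113 CPM in HCT116, while immune markers summed to at most 3.03 CPM and endothelial markers to at most 1.48 CPM. The fibroblast list summed to 544 to 775 CPM in NCI-H716, where *COL3A1* was its single gene at 10 CPM or more, and to at most 34.1 CPM in HCT116.

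Far more genes passed the test in HCT116 than in NCI-H716, and those that passed in both lines were all higher. All 8 libraries were fitted together with edgeR's quasi-likelihood test, and a gene is said to have risen, fallen or been called when its Benjamini-Hochberg adjusted p was under 0.05 over the 7642 genes tested. In HCT116, 177 of the 4152 genes rose and 195 fell, against 2.85% and 3.14% of all genes tested. In NCI-H716, 13 rose and 0 fell, against 0.222% and 0.0262% of all genes tested. In NCI-H716, 717 of the genes had an unadjusted p under 0.05, 407 of them higher and 310 lower. Over all 7642 genes tested these were 539 and 419. DESeq2 called 51 higher and 63 lower in NCI-H716. In both lines 10 genes rose, where 0.144% of all genes tested did so, and 0 fell. No gene was called in opposite directions by edgeR, while 30 had an unadjusted p under 0.05 in both lines with opposite signs and DESeq2 called 1. The difference between the 2 responses, tested as the interaction of line and treatment, was called for 4 genes, against 0.0654% of all genes tested.

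These counts depended on single libraries. Without the shallow HCT116 Z325 replicate 2, 152 genes rose and 209 fell in HCT116, 15 rose and 1 fell in both lines, and the difference was called for 13 genes higher and 27 lower in HCT116. In NCI-H716, 30 genes then rose and 6 fell. Without HCT116 Control replicate 1, 26 rose and 73 fell in HCT116 and 5 rose in both lines, and without HCT116 Control replicate 2 these were 33, 36 and 8. Without HCT116 Z325 replicate 1, 81 rose and 121 fell in HCT116, and 20 rose and 2 fell in NCI-H716. Leaving out NCI-H716 Control replicate 1, Control replicate 2 or Z325 replicate 2 left 5, 6 or 7 genes that rose in both lines and 0 called for the difference. Without NCI-H716 Z325 replicate 1, 19 genes rose and 26 fell in NCI-H716, 3 fell in both lines and 1 was called in opposite directions. The paper calls the replicates biological duplicates, but neither it nor the labels say that they were separate cultures. Each p therefore measures only the spread between these libraries. Because the reads of the lines were counted by different routes, no level is tested between the lines.

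**Figure D1:**
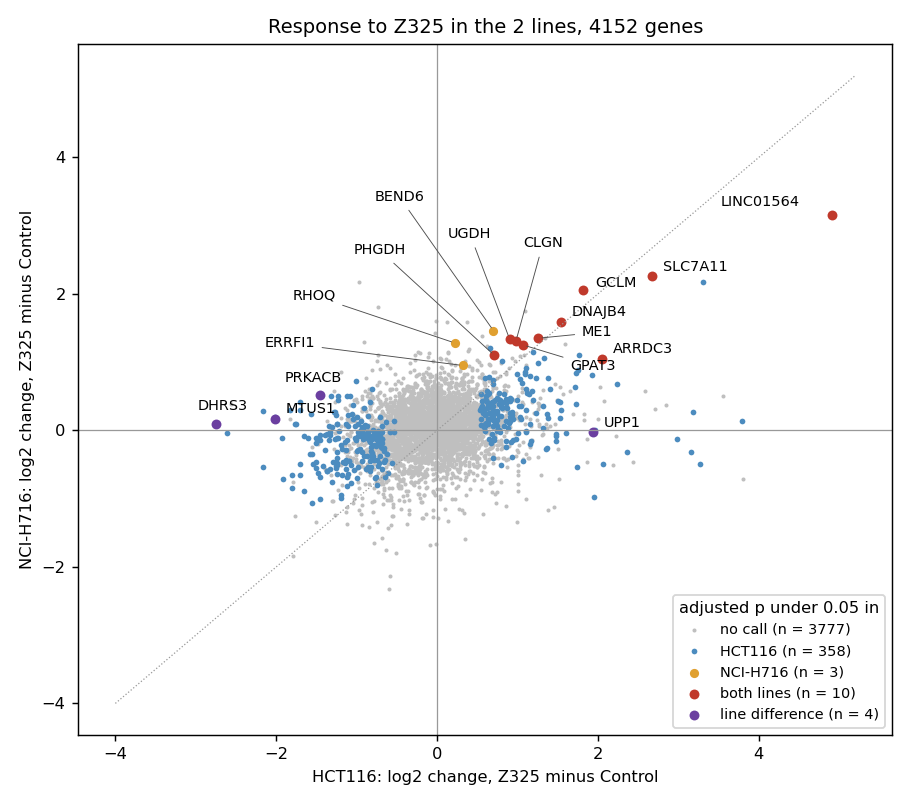
Log2 change with Z325 of 4152 genes in HCT116 (horizontal axis) and NCI-H716 (vertical axis), coloured by where the adjusted p was under 0.05; the dotted line marks equal change. The 10 genes called in both lines lie in the upper right, with LINC01564 at 4.91 and 3.15, whereas DHRS3, MTUS1, PRKACB and UPP1 lie near the horizontal zero line or on the other side of it.

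Below the level of single calls, the 2 responses leaned the same way. Of the 4152 genes, 2401 (57.8%) had the same sign in both lines, 1262 higher and 1139 lower. Spearman's rho between the 2 log2 changes was 0.248 and Pearson's r 0.269, as a description over 4152 genes of which none is a replicate, and rho was 0.159 without HCT116 Control replicate 2. The lines share no library, although genes of 1 library share its depth and composition. When the genes were split into 3 equal groups of 1384 by mean level, rho was 0.162, 0.292 and 0.363 from the low to the high group. The median standard error of a log2 change was 0.23 in each line, and the median absolute log2 change was 0.34 in HCT116 and 0.26 in NCI-H716.

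The genes called in HCT116 were then read in NCI-H716, which shares no library with HCT116. Of the 177 that rose in HCT116, 139 (78.5%) were above 0 in NCI-H716, compared with 55.5% of all 4152 genes. Their median log2 change was 0.88 in HCT116 and 0.30 in NCI-H716. An unadjusted p under 0.05 in NCI-H716 was found for 71 of them in the same direction and for 2 in the opposite direction. Of the 195 that fell in HCT116, 147 (75.4%) were below 0 in NCI-H716, compared with 44.5% of all genes. Their median was -1.02 in HCT116 and -0.14 in NCI-H716, with 48 at an unadjusted p under 0.05 in the same direction and 4 in the opposite. The change in NCI-H716 was at least 50% of that in HCT116, on the log2 scale, for 65 of the 177 and for 35 of the 195. Without HCT116 Z325 replicate 2 the shares with the same sign were 77.6% and 68.9%. Scaling and the estimate of the spread were joint for both lines.

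**Figure D2:**
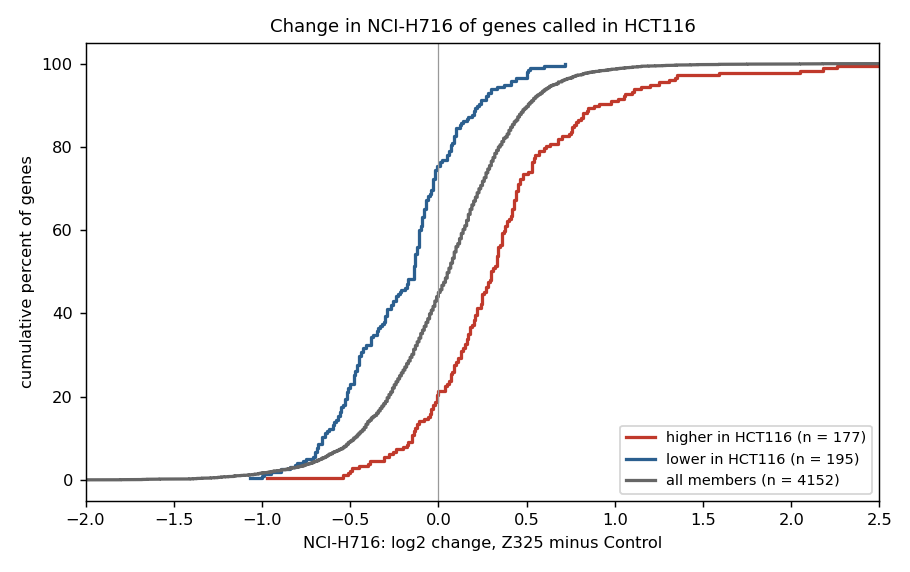
Cumulative percent of genes (vertical axis) by log2 change in NCI-H716 (horizontal axis) for genes that rose in HCT116 (n = 177), fell in HCT116 (n = 195) and all 4152 genes. The curve of the genes that rose in HCT116 is shifted to the right of that for all genes, with 78.5% above 0, and the curve of those that fell is shifted to the left, with 75.4% below 0.

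The shared genes included those of cystine uptake and glutathione synthesis. *SLC7A11*, the cystine transporter that feeds glutathione synthesis, was at 145 and 124 CPM in HCT116 Control and at 805 and 909 CPM in HCT116 Z325. The NCI-H716 libraries were at 95.9 and 116 CPM in Control and at 508 and 505 CPM with Z325. The treated libraries lay far above the controls in each line, and the log2 change was 2.67 (SE 0.16, adjusted p = 1.8e-05) in HCT116 and 2.26 (SE 0.16, adjusted p = 0.000111) in NCI-H716. *GCLM*, the modifier subunit of the enzyme that starts glutathione synthesis, went from 185 and 181 CPM to 589 and 692 CPM in HCT116. In NCI-H716 it went from 65 and 80.7 CPM to 319 and 283 CPM. Its log2 change was 1.81 (SE 0.16, adjusted p = 0.000188) in HCT116 and 2.05 (SE 0.17, adjusted p = 0.000156) in NCI-H716. *SLC7A11* shares 8.97% of its exon bases with the antisense gene *SLC7A11-AS1*, so part of its count is uncertain.

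A RefSeq promoter was at hand for 9 of the 10 shared genes, all but *SLC7A11*, and those of *GCLM* and *ME1* held the core letters of the antioxidant response element through which NRF2 acts, and they are shown for that reason. Both are sequences of GRCh38.p14, 300 bases each, from 250 bases before the start of the gene, on the minus strand of chr1:93909381-93909680 for *GCLM* and of chr6:83431002-83431301 for *ME1*. Capitals mark matches to TGACNNNGC on either strand.
GCLM: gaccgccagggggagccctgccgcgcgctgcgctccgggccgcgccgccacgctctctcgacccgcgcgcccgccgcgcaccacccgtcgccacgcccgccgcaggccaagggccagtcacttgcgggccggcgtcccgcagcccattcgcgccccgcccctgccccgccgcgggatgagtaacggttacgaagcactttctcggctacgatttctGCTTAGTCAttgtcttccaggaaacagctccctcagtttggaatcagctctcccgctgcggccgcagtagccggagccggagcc
ME1: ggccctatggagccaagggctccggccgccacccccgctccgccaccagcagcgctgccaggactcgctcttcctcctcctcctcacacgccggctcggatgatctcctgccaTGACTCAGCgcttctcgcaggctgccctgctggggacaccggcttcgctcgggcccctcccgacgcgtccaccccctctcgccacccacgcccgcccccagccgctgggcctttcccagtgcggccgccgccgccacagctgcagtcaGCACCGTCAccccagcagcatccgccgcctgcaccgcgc
The match in *GCLM* spans bases -34 to -26 and those in *ME1* bases -137 to -129 and 11 to 19, counted from 0 at the first transcribed base.

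*ME1*, the malic enzyme that makes NADPH in the cytosol, was at 213 and 235 CPM in HCT116 Control and at 531 and 545 CPM with Z325. The NCI-H716 values were 138 and 173 CPM and then 381 and 409 CPM. Its log2 changes of 1.26 (SE 0.16, adjusted p = 0.00156) and 1.35 (SE 0.16, adjusted p = 0.00264) were nearly equal. *UGDH*, which makes the sugar donor for glucuronidation, went from 251 and 292 CPM to 500 and 512 CPM in HCT116. In NCI-H716 it went from 420 and 398 CPM to 1100.3 and 970 CPM. The rise of *UGDH* was 0.90 (SE 0.15, adjusted p = 0.0063) in HCT116 and 1.34 (SE 0.15, adjusted p = 0.00149) in NCI-H716, and 12.7% of its exon bases overlap *UGDH-AS1* on the opposite strand. The long noncoding RNA *LINC01564* was the shared gene with the highest log2 change, at 4.91 (SE 0.36, adjusted p = 6.04e-05) in HCT116 and 3.15 (SE 0.32, adjusted p = 0.000967) in NCI-H716. It was at 0.771 and 1.52 CPM in HCT116 Control, at 32.3 and 37.6 CPM in HCT116 Z325, at 7.79 and 6.75 CPM in NCI-H716 Control and at 71.1 and 58.8 CPM in NCI-H716 Z325. It begins at base 53616471 of chromosome 6 on the plus strand, inside the 5′ end of *GCLC*, which lies at 53497341 to 53616970 on the minus strand.

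*GCLC* encodes the catalytic partner of *GCLM*. It was at 49.9 and 46.1 CPM in HCT116 Control and at 137 and 188 CPM with Z325, a log2 change of 1.75 (SE 0.19, adjusted p = 0.000468). NCI-H716 had 117 and 128 CPM and then 223 and 229 CPM, a log2 change of 0.88 (SE 0.18) that did not pass, with an adjusted p of 0.0832. The treated libraries lay above both controls in both lines, and the difference between the lines was not called.

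The other shared genes had roles in folding, lipid and serine synthesis and membrane traffic. *DNAJB4*, a co-chaperone of HSP70, went from 185 and 168 CPM to 541 and 486 CPM in HCT116 and from 38.3 and 40.7 CPM to 129 and 109 CPM in NCI-H716. The rise was 1.54 (SE 0.16, adjusted p = 0.000342) and 1.59 (SE 0.17, adjusted p = 0.0012). *CLGN*, a chaperone of the endoplasmic reticulum, was low in HCT116, at 7.64 and 8.17 CPM in Control and 16 and 15.2 CPM with Z325. In NCI-H716 it went from 59.4 and 69.9 CPM to 170 and 151 CPM, so that its rise was 0.98 (SE 0.22, adjusted p = 0.0245) in HCT116 and 1.31 (SE 0.20, adjusted p = 0.0156) in NCI-H716. The call of *CLGN* in HCT116 was lost in 6 of 15 alternatives, among them leaving out any other HCT116 library than Z325 replicate 2, and that in NCI-H716 in 4, each leaving out 1 NCI-H716 library.

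*PHGDH*, the first enzyme of serine synthesis, went from 38.3 and 51 CPM to 73.4 and 72.2 CPM in HCT116 and from 266 and 286 CPM to 543 and 636 CPM in NCI-H716. Its change in HCT116 was the smallest of the shared genes, at 0.71 (SE 0.18, adjusted p = 0.0393), and in NCI-H716 it was 1.10 (SE 0.17, adjusted p = 0.018). The call of *PHGDH* in HCT116 was lost in 9 of 15 alternatives, among them leaving out any HCT116 library or either NCI-H716 control. *GPAT3*, an acyltransferase of triglyceride synthesis, went from 75.5 and 80.2 CPM to 146 and 181 CPM in HCT116 and from 70.2 and 73.8 CPM to 174 and 169 CPM in NCI-H716. Its log2 changes were 1.07 (SE 0.17, adjusted p = 0.00608) and 1.25 (SE 0.17, adjusted p = 0.0118). *ARRDC3*, an arrestin-family adaptor of receptor traffic, rose from 140 and 126 CPM to 558 and 544 CPM in HCT116 and from 88.2 and 85.6 CPM to 195 and 166 CPM in NCI-H716. Its change was 2.05 (SE 0.16, adjusted p = 6.04e-05) in HCT116 and 1.05 (SE 0.15, adjusted p = 0.0152) in NCI-H716, and the difference between the lines was not called. In all 10 shared genes the treated libraries of a line lay above both controls of that line, as in 481 of all 4152 genes. The 10 were picked by tests on the same libraries, so the lack of overlap is no further evidence.

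**Figure D3:**
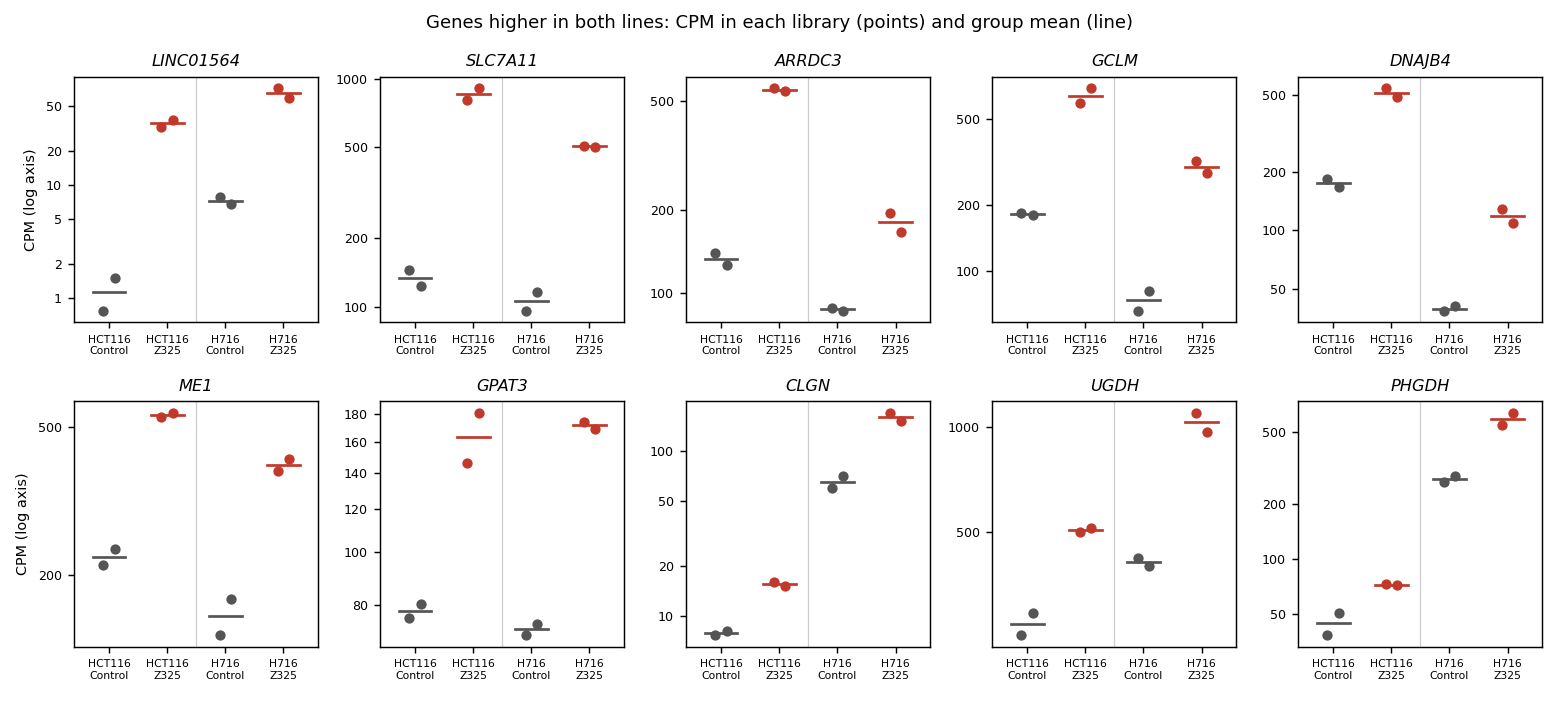
CPM on a log axis in each of the 8 libraries for the 10 genes called higher in both lines; points are libraries, grey for Control and red for Z325, and short lines are group means of 2 libraries. In every panel both treated libraries lie above both controls of the same line, as for SLC7A11, which goes from 145 and 124 to 805 and 909 CPM in HCT116.

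The lists of NRF2 and ATF4 targets had medians above 0 in both lines. They were written with earlier results of these data known. Genes described above are on them, among them *SLC7A11*, *GCLM*, *GCLC*, *UGDH* and *PHGDH*. The calls of such genes are counted again here and add no separate evidence. Of 42 listed NRF2 targets, 11 were among the genes compared, 5 rose in HCT116 and 4 in NCI-H716, and 0 fell. Their median log2 change was 0.38 in HCT116 and 0.58 in NCI-H716, where the median of all genes compared was -0.03 and 0.06 and that of all genes tested 0.00 and 0.02. Of 38 listed ATF4 targets, 8 were among the genes compared, with medians of 0.65 and 0.73. *PHGDH* rose in both lines, and 3 more ATF4 targets rose in HCT116 but did not pass in NCI-H716.

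*CTH*, which makes cysteine from cystathionine, had a log2 change of 0.99 (SE 0.19, adjusted p = 0.015) in HCT116 and 0.82 (SE 0.19, adjusted p = 0.123) in NCI-H716. *STC2*, a secreted glycoprotein hormone, was at 1.19 (SE 0.24, adjusted p = 0.0169) and 1.15 (SE 0.25, adjusted p = 0.105). *MTHFD2*, the mitochondrial folate enzyme, was at 0.60 (SE 0.14, adjusted p = 0.0321) and 0.77 (SE 0.14, adjusted p = 0.0544). The sizes in the 2 lines were thus close for each of these 3 genes. Both treated libraries were above both controls in each line, as in 481 of all 4152 genes. The exons of *MTHFD2* overlap those of *SLC4A5* over 11.6% of their length, and its call in HCT116 was lost in 6 of 15 alternatives.

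The cytosolic tRNA synthetases moved less. Of 14 compared, 3 rose in HCT116 and 0 in NCI-H716, and the medians were 0.27 and 0.32. *GARS1*, which loads glycine, had log2 changes of 0.69 (SE 0.16) and 0.74 (SE 0.16), *SARS1*, which loads serine, of 0.64 (SE 0.15) and 0.55 (SE 0.15), and the scaffold protein *AIMP1* of 0.62 (SE 0.14) and 0.32 (SE 0.14). Without HCT116 Z325 replicate 2, 1 of the 14 rose in HCT116, and the calls of *GARS1*, *SARS1* and *AIMP1* were lost in 5, 7 and 6 of 15 alternatives. Among 11 heat shock genes, *DNAJB4* was the one called, in both lines, and the medians were 0.30 and 0.23. Of 12 chaperones of the endoplasmic reticulum, *DNAJB9* rose in HCT116, by 1.02 (SE 0.18, adjusted p = 0.00829), with 0.36 (SE 0.18, adjusted p = 0.45) in NCI-H716, and the medians were 0.11 in each line.

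Genes lower in both lines were less clearly resolved. None was called by edgeR in both lines, although 110 had an unadjusted p under 0.05 in both with a negative change. DESeq2 called 15, edgeR blocked on replicate number called 10 and edgeR with no filter 12, and the block called 27 genes lower in NCI-H716. As a description, genes were also sorted by whether both treated libraries lay beyond both controls with an absolute log2 change of 0.5 or more. By that count 100 genes were higher in both lines, against 2.43% of all genes tested, and 105 were lower in both, against 2.42%. A further 29 were higher in HCT116 and lower in NCI-H716, against 1.14%, and 32 lower in HCT116 and higher in NCI-H716, against 1.41%. These shares of the 4152 genes, 2.41% and 2.53% in the same direction and 0.698% and 0.771% in opposite directions, were near the background for the former and below it for the latter. In HCT116 alone 366 (8.82%) were higher and 560 (13.5%) lower, against 9.4% and 11.9% of all genes tested. In NCI-H716 alone 270 (6.5%) were higher and 171 (4.12%) lower, against 7.86% and 7.28%, and 2519 met the criterion in neither line.

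The 6 genes lowest in both lines without overlap were *TMUB1*, *FLJ20021*, *ALG3*, *APH1A*, *RAMP1* and *PRADC1*, with log2 changes from -1.79 to -1.12 in HCT116 and from -1.84 to -1.13 in NCI-H716. None had an adjusted p under 0.05 in either line, although *RAMP1* and *PRADC1* passed in HCT116 in 10 of 15 alternatives each. In *RAMP1*, a partner of the calcitonin receptor-like receptor, the levels were 158 and 227 CPM in HCT116 Control, 96.6 and 78.9 CPM with Z325, 401 and 243 CPM in NCI-H716 Control and 184 and 98.9 CPM with Z325. In *ALG3*, a mannosyltransferase of N-glycan assembly, NCI-H716 Control replicate 2 at 183 CPM lay next to NCI-H716 Z325 replicate 1 at 175 CPM, while the other control was at 361 CPM and the other treated library at 74.9 CPM. The spread between the controls was thus as large as the change, and *TMUB1* and *APH1A* stood below 20 CPM in every library.

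Among the gene lists, those of cell division were the lowest in HCT116 and stood below 0 in NCI-H716 as well. In bulk samples such as these, fewer dividing cells and less of these RNAs per cell cannot be told apart. Of 38 genes of the G2 and M phases, 12 fell in HCT116 and 0 in NCI-H716, and 28 of the 38 were below 0 in both lines. Their median log2 change was -0.48 in HCT116 and -0.21 in NCI-H716. *CDCA8*, a subunit of the chromosomal passenger complex, was at 169 and 181 CPM in HCT116 Control and at 53.4 and 45.5 CPM with Z325, a log2 change of -1.81 (SE 0.17, adjusted p = 0.000228). The corresponding NCI-H716 levels were 202 and 174 CPM and then 118 and 120 CPM, a change of -0.66 (SE 0.17) with an adjusted p of 0.155. *CDC20*, the activator of the anaphase-promoting complex, had changes of -1.30 (SE 0.17, adjusted p = 0.00173) and -0.46 (SE 0.17, adjusted p = 0.312). *NCAPH*, a condensin subunit, had -1.54 (SE 0.22) and -0.50 (SE 0.21), and the mitotic kinesin *KIF20A* had -1.18 (SE 0.20) and -0.27 (SE 0.21), and both fell in HCT116 alone. In these 4 genes both treated libraries lay below both controls in each line, as in 16 of the 38 and in 389 of all 4152 genes. These 4 were picked by the lowest unadjusted p of the list. Without HCT116 Z325 replicate 2, 9 of the 38 fell in HCT116.

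Of 24 DNA replication genes, 6 fell in HCT116 and 0 in NCI-H716, 16 were below 0 in both lines, and the medians were -0.39 and -0.21. *MCM4* and *MCM7*, subunits of the replicative helicase, had log2 changes of -1.37 (SE 0.18, adjusted p = 0.0018) and -1.13 (SE 0.16, adjusted p = 0.00291) in HCT116. In NCI-H716 they stood at -0.59 (SE 0.18, adjusted p = 0.226) and -0.44 (SE 0.15, adjusted p = 0.301), and *MCM7* overlaps *AP4M1* over 7.9% of its exon bases. *MCM3*, of the same helicase, had -0.85 (SE 0.17, adjusted p = 0.0152) in HCT116 and -0.14 (SE 0.16, adjusted p = 0.789) in NCI-H716, where the groups overlapped. *POLD2*, of DNA polymerase delta, had -1.25 (SE 0.24) in HCT116 and -0.48 (SE 0.23) in NCI-H716, and fell in HCT116.

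Of 18 S phase genes, 6 fell and 1 rose in HCT116, with medians of -0.45 and -0.08. *RRM2*, the small subunit of ribonucleotide reductase, was at 1838 and 2013.1 CPM in HCT116 Control and at 1139 and 1113.2 CPM with Z325. NCI-H716 showed 919 and 898 CPM and then 516 and 605 CPM. Its changes were nearly equal, at -0.77 (SE 0.14, adjusted p = 0.0107) and -0.70 (SE 0.14, adjusted p = 0.0789). The exonuclease *EXO1* had -0.99 (SE 0.19) and -0.29 (SE 0.19), with overlap in NCI-H716. The gene that rose was the histone chaperone *ASF1A*, by 1.11 (SE 0.16, adjusted p = 0.00355) in HCT116, with 0.30 (SE 0.16, adjusted p = 0.463) in NCI-H716. Among 15 enzymes of nucleotide synthesis, 10 were below 0 in both lines, 1 rose and 1 fell in HCT116, and the medians were -0.33 and -0.10. *IMPDH1*, of guanine nucleotide synthesis, had -1.46 (SE 0.39, adjusted p = 0.0497) in HCT116 and -0.68 (SE 0.36) in NCI-H716. Its call was lost in 8 of 15 alternatives, among them leaving out any library but HCT116 Control replicate 1 and HCT116 Z325 replicate 2. The thymidylate kinase *DTYMK* had -0.55 (SE 0.25) and -1.12 (SE 0.26), neither of them called.

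Of 53 nucleolar genes of ribosome production, 8 fell and 1 rose in HCT116 and 0 were called in NCI-H716, with medians of -0.22 and -0.06. The helicase *DDX56* had -1.25 (SE 0.19, adjusted p = 0.00462) and -0.51 (SE 0.19, adjusted p = 0.322). Nucleolin, *NCL*, was at 1417.1 and 1047.2 CPM in HCT116 Control and at 740 and 728 CPM with Z325, a change of -0.75 (SE 0.17, adjusted p = 0.0307). Its level in NCI-H716 was 818 and 870 CPM and then 727 and 930 CPM, so the groups overlapped around a change of -0.03 (SE 0.17). Without HCT116 Z325 replicate 2, 4 of the 53 fell in HCT116. The 28 cytosolic ribosomal proteins had medians of 0.13 and 0.28 and none was called in either line by edgeR. At an unadjusted p under 0.05, 1 of them was lower in HCT116, and 8 were higher and 1 lower in NCI-H716. Their median in HCT116 was below 0 in 1 of 15 alternatives.

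**Figure D4:**
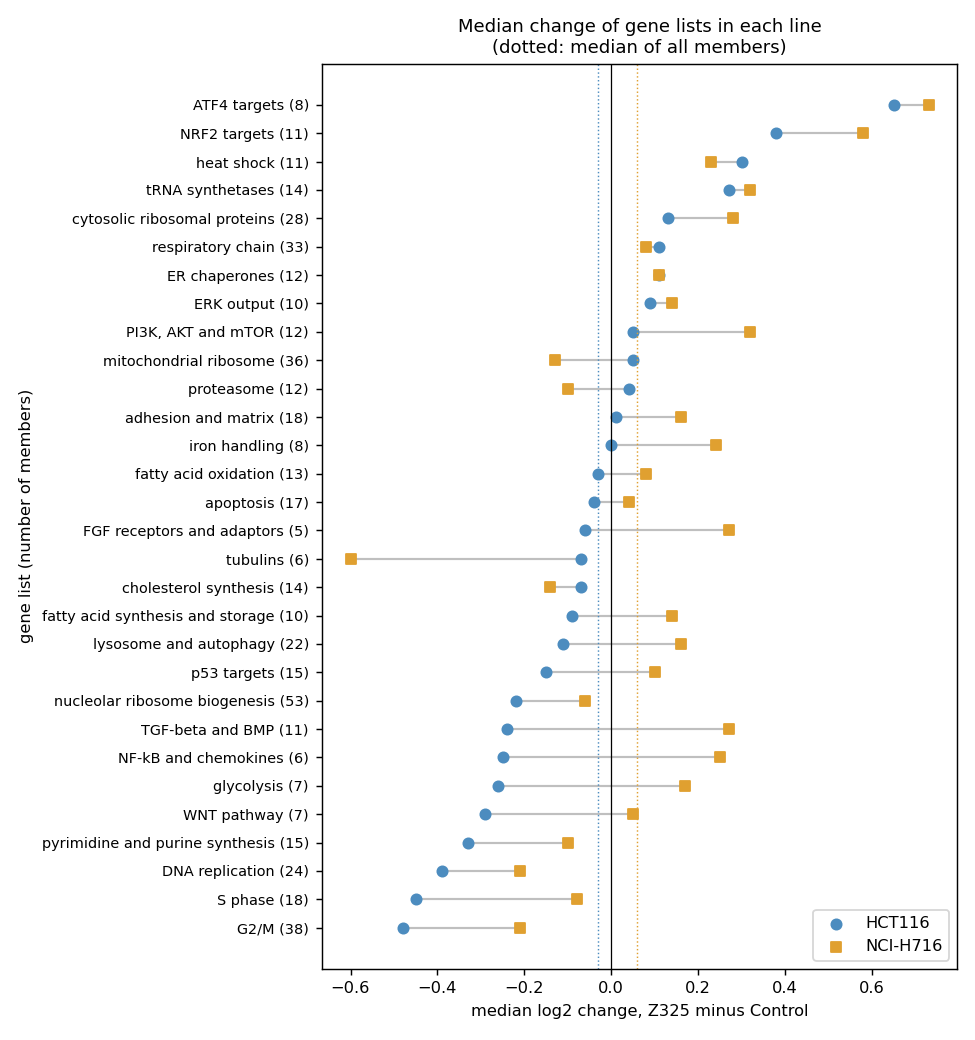
Median log2 change with Z325 of 30 gene lists (vertical axis, number of genes compared in brackets) in HCT116 (blue circles) and NCI-H716 (yellow squares); dotted lines are the medians of all 4152 genes. ATF4 and NRF2 targets are highest in both lines, at 0.65 and 0.38 in HCT116 and 0.73 and 0.58 in NCI-H716, and the G2/M list is lowest in HCT116, at -0.48.

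Over the 30 lists, both medians were above 0 in 10 and below 0 in 7. In 11 the median was at or below 0 in HCT116 and above 0 in NCI-H716, and in 2 the reverse. The medians reached 0.2 in both lines for 4 lists (NRF2 targets, ATF4 targets, tRNA synthetases and heat shock) and -0.2 in both for 2 (DNA replication and G2/M). In 6 lists no member was called in either line. One of these was the list of FGF receptors and their adaptors, of which 5 of 30 were compared, with medians of -0.06 and 0.27. None of the receptors was among the 4152. *FGFR2* lies beyond the chromosomes compared, so its level in either line is not known from these genes. The paper reports that expression of the receptors did not differ with treatment. Before scaling for depth, *FGFR1* had counts of 263 and 212 in HCT116 Control and 112 and 48 in HCT116 Z325. In the NCI-H716 libraries *FGFR1* had 3 to 9 counts. The count of 48 came from the shallow HCT116 Z325 replicate 2, with a total of 3434615 against 13396165 in HCT116 Z325 replicate 1. The HCT116 Control totals were 13339249 and 13183764, close to that of Z325 replicate 1. *FGFR4* had 88 and 111 counts in HCT116 Control and 36 and 17 with Z325. *FGFR3* had 52 and 36 and then 25 and 6. Relative to the totals, *FGFR1*, *FGFR3* and *FGFR4* were lower in both treated HCT116 libraries than in both controls. In NCI-H716 the groups overlapped for each. The size of a change is uncertain at these counts, and no test of it is reported here. *FGFR4* fell below the minimum with 2 counts in NCI-H716 Z325 replicate 2, and *FGFR3* with 6 in HCT116 Z325 replicate 2.

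Of 10 output genes of the ERK pathway, 1 rose in HCT116 and none was called in NCI-H716, with medians of 0.09 and 0.14. The gene that rose was the immediate early factor *EGR1*, at 26 and 15.7 CPM in HCT116 Control and at 53.3 and 41.3 CPM with Z325, a change of 1.19 (SE 0.31, adjusted p = 0.0459). In NCI-H716 its change was 0.44 (SE 0.32, adjusted p = 0.61). The call of *EGR1* in HCT116 was lost in 9 of 15 alternatives, among them leaving out any library but HCT116 Z325 replicate 2. The ETS factors *ETV5* and *ETV1*, which follow FGF and ERK signalling in many tissues, had changes of 0.42 (SE 0.16) and -0.87 (SE 0.30) in HCT116 and of 0.16 (SE 0.16) and 0.51 (SE 0.22) in NCI-H716. The feedback inhibitor *SPRY1* had -0.78 (SE 0.26) and -0.27 (SE 0.21). None of these 3 was called in either line. The death-associated gene *GADD45A* rose in HCT116, by 0.78 (SE 0.19, adjusted p = 0.04), with -0.02 (SE 0.20, adjusted p = 0.987) in NCI-H716, where the groups overlapped. That call was lost in 11 of 15 alternatives, among them leaving out any of the 8 libraries. Of 49 listed genes of apoptosis 17 were compared, and none was called in either line by edgeR. At an unadjusted p under 0.05, 1 was higher and 2 were lower in HCT116, and 1 was higher and 1 lower in NCI-H716. *CTSL*, *DDIT3* and *PMAIP1*, which the paper names among its up-regulated apoptosis genes, lie beyond chromosome 8 and were not compared.

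For 4 genes the 2 responses themselves differed. *DHRS3*, which reduces retinal to retinol, was at 70.7 and 77.5 CPM in HCT116 Control and at 13.8 and 6.68 CPM with Z325. NCI-H716 had 143 and 113 CPM and then 132 and 141 CPM, so the groups overlapped. Its change was -2.75 (SE 0.28) in HCT116 and 0.09 (SE 0.24) in NCI-H716, a difference of -2.84 (SE 0.36, adjusted p = 0.0163). *MTUS1*, a microtubule-associated growth suppressor, went from 190 and 147 CPM to 41.5 and 41.9 CPM in HCT116. In NCI-H716 it was at 96.7 and 106 CPM and at 104 and 122 CPM, and the difference was -2.18 (SE 0.27, adjusted p = 0.0163).

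*PRKACB*, a catalytic subunit of protein kinase A, went from 333 and 340 CPM to 131 and 115 CPM in HCT116 and from 38.6 and 52.1 CPM to 64.5 and 65.6 CPM in NCI-H716. Its treated libraries thus lay below both controls in one line and above both in the other. The change of -1.45 (SE 0.18, adjusted p = 0.00155) in HCT116 was called and that of 0.52 (SE 0.18, adjusted p = 0.304) in NCI-H716 was not, and they differed by -1.97 (SE 0.25, adjusted p = 0.0163). *UPP1*, the uridine phosphorylase of pyrimidine salvage, was higher in HCT116 Z325, at 264 and 253 CPM against 57 and 77.7 CPM. In NCI-H716 it was at 32.8 and 28.8 CPM in Control and at 30.9 and 29.5 CPM with Z325, and the difference was 1.97 (SE 0.28, adjusted p = 0.0302). The call of each of these 4 genes was lost when HCT116 Control replicate 1, NCI-H716 Control replicate 1, NCI-H716 Control replicate 2 or NCI-H716 Z325 replicate 2 was left out.

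**Figure D5:**
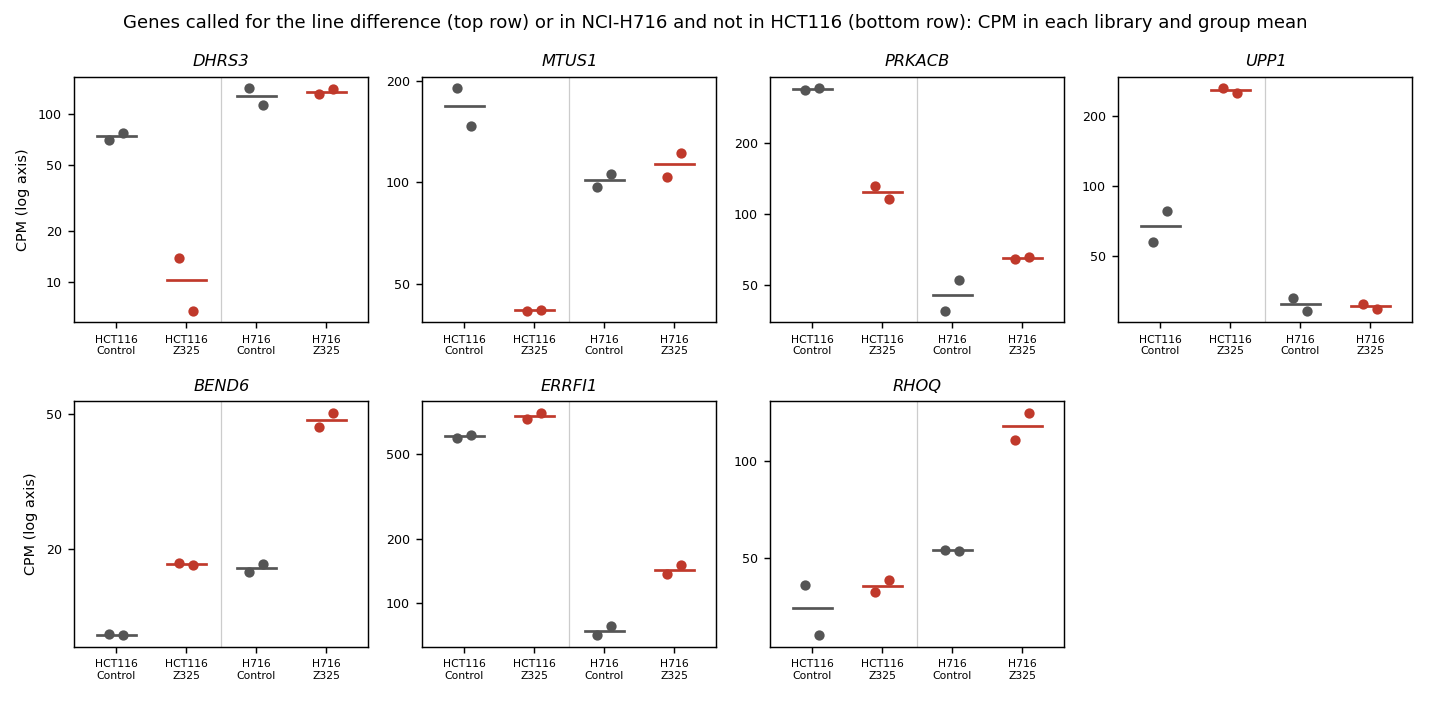
CPM on a log axis in each of the 8 libraries for the 4 genes called for the difference between the lines (top) and the 3 called in NCI-H716 and not in HCT116 (bottom); points are libraries, grey for Control and red for Z325, and short lines are means of 2 libraries. DHRS3, MTUS1 and PRKACB are lower and UPP1 is higher with Z325 in HCT116, while DHRS3, MTUS1 and UPP1 overlap between the groups in NCI-H716.

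Most genes that passed in HCT116 alone could not be called particular to that line. Of the 177 that rose and the 195 that fell there, 167 and 195 were not called in NCI-H716, but only *UPP1* among the former and *DHRS3*, *MTUS1* and *PRKACB* among the latter were called for the difference. An unadjusted p under 0.05 for the difference was found for 91 of the 177 and 133 of the 195, and for 725 of all 4152 genes. The HCT116 change that selected the 177 and the 195 is itself a part of that difference. A high share among them was therefore built in and does not show that they are particular to HCT116. Among the genes with the largest rises in HCT116 and no call in NCI-H716, several stood far higher in the shallow treated library than in the other. *HBP1*, a repressor of cell cycle entry, was at 0.926 and 2.08 CPM in Control, and at 8.19 CPM in Z325 replicate 1 but 37 CPM in replicate 2. *FDFT1*, the squalene synthase, was at 4.78 and 6.33 CPM and then at 8.78 and 85 CPM. *VGF*, a secreted neuroendocrine precursor, was at 3.63 and 3.37 CPM and then at 7.51 and 32.2 CPM. In each of these the 2 treated libraries differed from each other by far more than the controls did, with replicate 2 the higher, and *HBP1* shares 18% of its exon bases with *COG5*.

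Without HCT116 Z325 replicate 2, the log2 change fell from 3.79 to 2.43 for *HBP1*, from 2.98 to 0.65 for *FDFT1*, from 2.36 to 1.09 for *VGF* and from 3.31 to 0.86 for the ferritin pseudogene *FTH1P11*, whose reads may come in part from *FTH1*. *FDFT1* and *FTH1P11* were then no longer called. In NCI-H716 the changes were 0.14 (SE 0.48), -0.12 (SE 0.62), -0.31 (SE 0.43) and 2.18 (SE 0.88), none called. *MAP2*, a microtubule-associated protein of neurons, was even between the treated libraries, at 6.63 and 7.53 CPM in Control and 33.2 and 33.7 CPM with Z325, a rise of 2.24 (SE 0.33, adjusted p = 0.00414). In NCI-H716 it was at 8.62 and 14.1 CPM and at 15.6 and 20.5 CPM, with 0.68 (SE 0.33, adjusted p = 0.429). *ERMARD* rose from 3.93 and 3.21 CPM to 18.7 and 47 CPM in HCT116, by 3.16 (SE 0.46, adjusted p = 0.004), with -0.31 (SE 0.42, adjusted p = 0.828) in NCI-H716, and the difference between the lines was not called.

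Besides *DHRS3* and *MTUS1*, the largest falls in HCT116 with no call in NCI-H716 included *MYD88*, *VSNL1* and *ARHGAP26*. *MYD88*, the adaptor of Toll-like receptors, went from 26.2 and 27 CPM to 4.22 and 8.5 CPM, by -2.17 (SE 0.36, adjusted p = 0.0076). In NCI-H716 it was at 23.1 and 18.2 CPM and at 27.8 and 22.5 CPM, a change of 0.28 (SE 0.33). *VSNL1*, a neuronal calcium sensor, went from 188 and 227 CPM to 55.1 and 35.5 CPM in HCT116, by -2.17 (SE 0.21, adjusted p = 0.000228). In NCI-H716 its treated libraries also lay below both controls, at 408 and 390 CPM against 615 and 548 CPM, with -0.54 (SE 0.19, adjusted p = 0.306). *ARHGAP26* had -1.93 (SE 0.28, adjusted p = 0.00361) and -0.11 (SE 0.25, adjusted p = 0.91). The difference between the lines was not called for these 3 genes.

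Among signalling lists, the 11 genes of TGF-beta and BMP signalling had medians of -0.24 in HCT116 and 0.27 in NCI-H716, and 2 fell in HCT116. *TGFBR2*, the type II receptor of TGF-beta, was at 31 and 31.3 CPM in HCT116 Control and at 12.9 and 11.8 CPM with Z325, a change of -1.32 (SE 0.33, adjusted p = 0.04). In NCI-H716 it was at 11.1 and 10.2 CPM and at 19.7 and 10.8 CPM, with 0.50 (SE 0.34, adjusted p = 0.589). *ID2*, a BMP target, had -1.25 (SE 0.18, adjusted p = 0.00324) and -0.41 (SE 0.17, adjusted p = 0.367), so the 2 genes that fell in HCT116 stood on opposite sides of 0 in NCI-H716. The call of *TGFBR2* in HCT116 was lost in 6 of 15 alternatives, each leaving out 1 library. Neither was called for the difference between the lines.

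In NCI-H716, 3 genes were called that were not called in HCT116. *ERRFI1*, a feedback inhibitor of the EGF receptor, went from 70.2 and 77.9 CPM to 136 and 150 CPM in NCI-H716, by 0.95 (SE 0.15, adjusted p = 0.0171). In HCT116 it was at 595 and 615 CPM and at 732 and 781 CPM, with 0.32 (SE 0.14, adjusted p = 0.21). *BEND6* rose from 17.1 and 18 CPM to 45.8 and 50.6 CPM, by 1.46 (SE 0.26, adjusted p = 0.0455), with 0.70 (SE 0.26, adjusted p = 0.139) in HCT116. The treated libraries of both genes lay above both controls in HCT116 as well. *RHOQ* rose from 53.1 and 52.7 CPM to 116 and 141 CPM, by 1.28 (SE 0.22, adjusted p = 0.044), and overlapped between the groups in HCT116, with 0.22 (SE 0.22, adjusted p = 0.628). Its exons overlap those of *PIGF* over 10.2% of their length. The calls of *ERRFI1*, *BEND6* and *RHOQ* in NCI-H716 were lost in 5, 6 and 4 of 15 alternatives, and the difference between the lines was not called for any of the 3.

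Promoter letters were counted in 3241 of the 4152 genes that matched a RefSeq promoter by symbol, in the same window of 300 bases and on both strands, as a description with no test. The window counted for *LINC01564* was chr6:53628130-53628429, downstream of the start at base 53616471 given above. The antioxidant response element TGACNNNGC was in 2 of 9 promoters of the shared genes (22.2%), in 24 of 146 of the genes that rose in HCT116 (16.4%) and in 17 of 164 of those that fell (10.4%). It was in 15.2% of the promoters of all genes compared and in 13.6% of all 27305 promoters, so the shared genes as a class were not set apart by it at this number. The E2F motif TTTGGCGC or TTTCCCGC was in 7.32% of the promoters of genes that fell in HCT116 and in 1.37% of those that rose, against 3.86% of all genes compared and 2.31% of all promoters. The CCAAT box was in 44.5% and 28.8% of them, against 38% of all genes compared and 35.7% of all promoters. The C/EBP-ATF motif TGATGNAA was in 0 of 9 promoters of the shared genes. It was in 4 of 146 of the genes that rose in HCT116 (2.74%) and in 1 of 164 of those that fell (0.61%). The share was 1.76% for all genes compared and 3.67% for all promoters. The cell cycle motif TTTGAA was in 11% of the promoters of genes that fell in HCT116 and in 12.3% of those that rose, against 10.2% of all genes compared and 15.4% of all promoters.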

How the data were processed

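RNA-seq of 8 libraries was analysed. For HCT116 the authors deposited read counts per gene in the layout of featureCounts. For NCI-H716 the authors deposited RSEM output, whose expected counts were rounded to whole numbers and used, while its TPM and FPKM values, also deposited, were not used. The paper describes SMART-Seq2 libraries, TrimGalore, STAR and RSEM, and the submitters' processing notes name Bowtie2 2.5.0, featureCounts and hg38, so the lines were counted by different routes and levels were not tested between them. The HCT116 table held 28047 lines, of which 4 were broken and left out, and 28015 genes were joined to the 63241 of NCI-H716. Total counts over the joined genes were 3434615 to 13396165 in HCT116 and 4458955 to 8846604 in NCI-H716, and precision is lowest in HCT116 Z325 replicate 2.

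Genes were filtered with filterByExpr and fitted with edgeR 4.0.16 (TMM, quasi-likelihood, 1 mean per group) in R 4.3.3. The Z325 change in each line and the difference between the lines were tested, with adjustment over all genes tested. CPM of single genes were computed from the counts on TMM-scaled library sizes, and marker sums on plain totals over the joined genes. Log2 changes are Z325 minus Control, given with the SE of the fit. Alternatives were DESeq2 1.42.0, other filters and scaling, each line alone, a replicate block, thinned counts and leaving out each library.

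Genes named were those called in both lines or for the difference, the 6 largest per direction called in 1 line without overlap at a mean of 10 CPM or more, the lowest unadjusted p of each list, genes the paper names and, where few genes were called in both lines, the 6 largest without overlap. The text names a subset of these, picked after their values were seen, and 1 gene of the rule is not reported here. Members and lists were chosen with earlier results of these data known, and the classes by absolute log2 change of 0.5 were chosen after the data were seen.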

Additional observations from a re-analysis of the deposited data

Results flagged for a closer look

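For 4 genes the effect of Z325 differed between HCT116 and NCI-H716 by the test of the interaction in edgeR. The log2 difference was -2.84 for *DHRS3*, -2.18 for *MTUS1*, -1.97 for *PRKACB* and 1.97 for *UPP1*. In HCT116 both treated libraries lay beyond both controls for each gene, and in NCI-H716 this held for *PRKACB* alone among the 4, in the opposite direction. Each call was lost without HCT116 Control replicate 1, NCI-H716 Control replicate 1 or 2 or NCI-H716 Z325 replicate 2, and that of *UPP1* also without NCI-H716 Z325 replicate 1.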

How the results depend on the processing

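Over 986 combinations of a called value of a named gene with an alternative, 0 reversed and 157 were no longer called. All 10 shared genes remained with DESeq2, with a minimum of 10 counts and with the replicate block, and 5 remained without HCT116 Control replicate 1 or NCI-H716 Control replicate 1. DESeq2 called 28 genes higher and 15 lower in both lines and 1 in opposite directions, 339 higher in HCT116, 51 higher and 63 lower in NCI-H716, and 65 higher and 40 lower for the difference. With no filter these were 12 lower in both, 1 opposite, 100 higher in HCT116, 25 and 40 in NCI-H716 and 26 and 34 for the difference, and 55.4% shared a sign. With at least 10 counts in every library, 320 were higher in HCT116, 2 lower in NCI-H716 and 15 and 11 called for the difference. Each line fitted alone gave 1 lower in NCI-H716. Library size alone gave 1 lower in both, 2 lower in NCI-H716 and 2 higher for the difference. Thinned counts gave 1 lower in both, 6 lower in NCI-H716 and 11 and 6 for the difference, and *GADD45A* stood at 0.00 in NCI-H716. The cause of these changes was not tested.

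Replicate numbers do not pair the samples by their labels. The deviations of same-numbered libraries correlated at -0.0177 in HCT116 and 0.316 in NCI-H716, and the replicate block gave 15 higher and 10 lower in both lines, 23 and 27 in NCI-H716 and 4 and 7 for the difference.

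Leaving out 1 library at a time gave 5 to 15 genes higher and 0 to 3 lower in both lines, 0 to 1 opposite, 26 to 167 higher and 36 to 209 lower in HCT116, 5 to 30 higher and 0 to 26 lower in NCI-H716, and 0 to 19 higher and 0 to 27 lower for the difference. A group left with 1 library was assumed to vary like the others. Spearman's rho was 0.159 to 0.313 and the same-sign share 54.3% to 60.9%. Changes that were not called crossed 0 for *ARHGAP26* (-0.39 to 0.14), *DHRS3* (-0.05 to 0.28), *ERMARD* (-0.63 to 0.15), *GADD45A* (-0.18 to 0.17), *MCM3* (-0.28 to 0.04), *NCL* (-0.21 to 0.15) and *UPP1* (-0.11 to 0.07) in NCI-H716 and for *RHOQ* (-0.03 to 0.48) in HCT116.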

Other observations

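Other gene lists lay on both sides of the medians of all genes tested, 0.00 in HCT116 and 0.02 in NCI-H716. The 6 genes of tubulins and their folding factors had medians of -0.07 and -0.60, with 1 called higher and 1 lower in HCT116. By edgeR 0 were called in NCI-H716, where the unadjusted p was under 0.05 for 2 higher (*TBCA* and *TUBE1*) and 4 lower. Their median in NCI-H716 was -0.84 to -0.27 over the alternatives. The 7 glycolysis genes had -0.26 and 0.17, the 7 WNT genes -0.29 and 0.05 and the 6 NF-kB and chemokine genes -0.25 and 0.25, with 1 glycolysis gene and 1 NF-kB gene called lower in HCT116. The NF-kB median in HCT116 was 0.23 without HCT116 Z325 replicate 1. The 12 genes of PI3K, AKT and mTOR had 0.05 and 0.32, with none called by edgeR, and in each line 1 was higher and 1 lower if p was left unadjusted. The 33 respiratory chain genes had median log2 changes of 0.11 in HCT116 and 0.08 in NCI-H716, with 1 called higher in HCT116. The 36 mitochondrial ribosomal proteins had 0.05 and -0.13, with 1 called lower in HCT116. The 22 lysosomal genes had -0.11 and 0.16, with 2 called higher and 1 lower in HCT116, and the 14 genes of cholesterol synthesis had -0.07 and -0.14, with 2 called higher and 1 lower. Of 15 p53 targets, 1 rose and 1 fell in HCT116, with medians of -0.15 and 0.10.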
